A study of Mus musculus with 9 samples.

Results

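The genes described here are the 4 Id genes (Id1, Id2, Id3 and Id4), the 3 E protein genes (Tcf3, Tcf4 and Tcf12) and Hes1, taken by name as the inhibitor of DNA binding family, its E protein partners and the repressor Hes1. They are 8 of the 37980 mouse genes in the expression table. They were measured by RNA sequencing of polyA RNA in myeloid progenitor cells (MPs, the Lin-ckit+Sca1- cells of the bone marrow). In 4 samples (NA MPs) they came from mice transplanted with multipotent progenitors (MPPs) that carried the Nup98-Hoxa10hd (NA) fusion gene, and were gated on Tdtomato+. In the other 5 (WT MPs) they came from mice transplanted with WT MPPs, and were gated on CD45.2+. Strain (C57BL/6), tissue, time (3 months after transplantation by the labels, while the study's methods give a later month) and the number of cells sorted per sample were the same in both groups.

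The fusion was expressed from the Rosa26 locus after Cre recombination, and Vav drives Cre in all blood lineages, so the fusion was present in the donor cells before transplantation as well as in the MPs that came from them. The recipients were irradiated and also received helper bone marrow cells. The Tdtomato gate marks the NA donor cells. The study's methods give the recipients as CD45.2+, while its figure captions mark donor cells by Tdtomato or by another form of CD45. By those marks the CD45.2 gate would take recipient or helper cells, but the study does not say so. Whether the WT MPs came from the donor, the helper cells or the recipient is therefore uncertain, and the gates differ between the groups along with the genotype. The labels do not say whether each sample was a separate mouse, and p-values then measure only the spread between these samples, which may be technical.

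Values are normalized read counts, that is, counts divided by a factor for each sample. The samples held between 5557718 and 8106141 reads in genes, as recovered from the steps between the values. Hoxa10, part of which is in the fusion, was listed between 116 and 155 in NA MPs and between 5.59 and 12 in WT MPs, which matched the labels. The myeloid progenitor genes Mpo, Elane and Kit were high in all 9 samples, and Kit averaged 2964 in NA MPs and 3039 in WT MPs. The first principal component separated the groups and held 65.8% of the variance. NA MP replicate 1 stood apart on the second component (20.3, where the other NA MPs had -8.93 to -3.01), and each difference below was also computed without it.

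E proteins are transcription factors of the basic helix-loop-helix (bHLH) class that bind E box sites in DNA as pairs, either with each other or with tissue-restricted bHLH factors such as Tal1. Id proteins have the helix-loop-helix part but no basic part, so an E protein paired with an Id protein does not bind DNA. In blood formation, E proteins are known for driving B and T lymphoid genes, Id2 for innate lymphoid and dendritic cell development, and Id1 and Id3 as early targets of BMP signalling. Hes1 is a bHLH repressor that acts with Groucho co-repressors and is best known as a direct target of Notch.

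Id3, Tcf4 and Hes1 were higher in NA MPs than in WT MPs in every sample, Id3 by over 3 units on the log2 scale from a level near the limit of detection. Tcf3 was higher by a small amount that depended on the processing. Id1, Id2 and Tcf12 did not pass the test, and Id4 was all but undetected. Of the 8 genes, 6 passed the expression filter (a value of at least 10 in at least 4 samples) and were tested with limma on log2(value + 1), with Benjamini-Hochberg adjustment over 11987 genes. Of those 6, 3 (Id3, Tcf3 and Tcf4) passed an adjusted p of 0.05, all 3 higher in NA MPs. Among all tested genes 34.3% passed (16.9% higher and 17.3% lower in NA MPs), and 26.3% had values that did not overlap between the groups, as did the same 3 of the 6. Id3 passed the filter only through its NA MP values, so that a difference was a condition of its being tested.

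**Figure D1:**
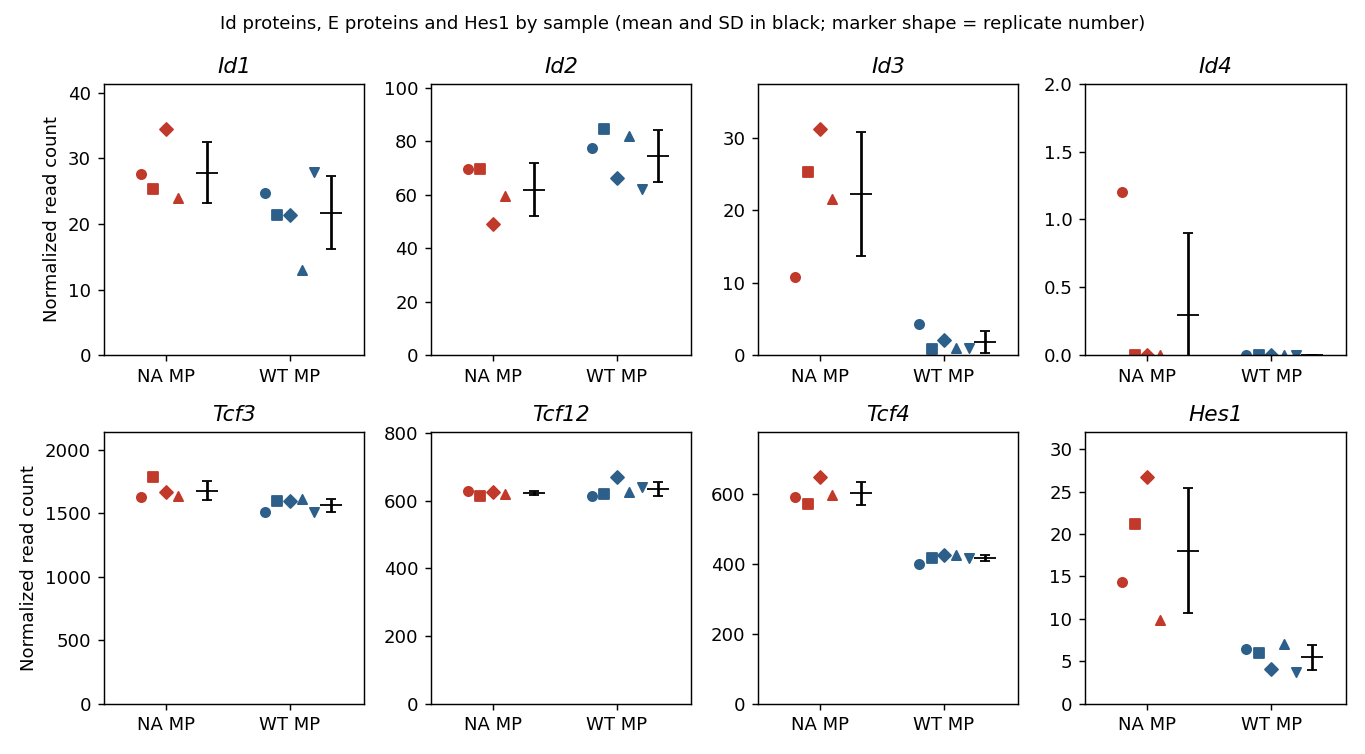
Normalized read count (linear axis from 0) of each gene in the 4 NA MP (red) and 5 WT MP (blue) samples, with the marker shape giving the replicate number and the mean and SD in black. Id3, Tcf3, Tcf4 and Hes1 do not overlap between the groups, Id1, Id2 and Tcf12 do, and Id4 has a value above 0 in 1 sample.

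Id3 (ENSMUSG00000007872, mm10 chromosome 4, 136143497 to 136145755, plus strand) had values of 10.8, 25.3, 31.2 and 21.5 in NA MP replicates 1 to 4. In WT MP replicates 1 to 5 it had 4.32, 0.856, 2.04, 1 and 0.932. All 4 NA MP values lay above all 5 WT MP values, and the lowest of them was that of replicate 1. The means were 22.2 ± 8.57 (SD, n = 4) and 1.83 ± 1.47 (SD, n = 5), a difference of 3.07 on the log2(value + 1) scale (SE 0.40, 95% interval 2.27 to 3.88, adjusted p = 3.59e-08 in limma). Id3 entered the limma test only through its NA MP values, so a difference was a condition of this result. The exact two-sided permutation test gave p = 0.0159, the smallest that the ways to choose 4 of 9 samples allow. These values rest on few reads: 9, 25, 28 and 26 in NA MPs against 4, 1, 2, 1 and 1 in WT MPs. Summed over samples, 88 reads against 9 gave a ratio per sequencing depth of 12.8, with a 95% exact interval of 6.45 to 28.9 that covers counting error only. Without NA MP replicate 1 the log2 difference was 3.37.

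Id1 (ENSMUSG00000042745, chromosome 2, 152736251 to 152737410, plus strand) had 27.6, 25.3, 34.5 and 24.0 in NA MPs and 24.8, 21.4, 21.4, 13 and 28.0 in WT MPs. The groups overlapped, with WT MP replicate 5 above 3 of the 4 NA MPs. The difference was 0.37 on the log2 scale (SE 0.21, 95% interval -0.05 to 0.79) and did not pass the test (adjusted p = 0.17 in limma).

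Id2 (ENSMUSG00000020644, chromosome 12, 25093799 to 25097140, minus strand) was the Id gene with the most reads. It had 69.6, 69.8, 49.0 and 59.5 in NA MPs, and 77.7, 84.7, 66.2, 82.0 and 62.4 in WT MPs. The 3 highest values were all WT MPs, and the lower 2 WT MPs lay within the NA MP range. The difference was -0.27 on the log2 scale (SE 0.13, 95% interval -0.52 to -0.01, adjusted p = 0.0979 in limma), so Id2 did not pass the test, with an estimate opposite in sign to that of Id3. Within a sample, the Id2 value was 2.30 ± 0.596 times the Id1 value in NA MPs (SD, n = 4) and 3.75 ± 1.56 times in WT MPs (SD, n = 5), and the ranges of 1.42 to 2.76 and 2.23 to 6.31 overlapped.

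Id4 (ENSMUSG00000021379, chromosome 13, 48261228 to 48266026, plus strand) had a single read, in NA MP replicate 1, and was at 0 in the other 8 samples. Its exons overlap 2 annotated genes on the opposite strand (A330033J07Rik and Gm49291), so even this read is of uncertain source. Id4 was not detectable in MPs at this depth, and no fold is given.

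Among the E proteins, Tcf4 (E2-2; ENSMUSG00000053477, chromosome 18, 69343356 to 69689079, plus strand) differed most. E2-2 is known as the E protein that plasmacytoid dendritic cells depend on. Its values were 592, 571, 647 and 596 in NA MPs, and 400.4, 417, 424, 425 and 416 in WT MPs. Every NA MP lay above every WT MP, and the WT MPs were close together, with an SD of 9.90 around a mean of 416. The NA MP mean was 601 ± 32.1 (SD, n = 4). The difference was 0.53 on the log2 scale (SE 0.048, 95% interval 0.43 to 0.63), 1.44-fold, with an adjusted p of 4.06e-12 in limma. It lay between 0.49 and 0.55 when any single sample was left out. A difference at least as large in either direction was found in 9.39% of all tested genes.

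Tcf3 (E2A; ENSMUSG00000020167, chromosome 10, 80409514 to 80433647, minus strand), which encodes the E12 and E47 proteins, was the E protein with the highest value. It had 1624, 1783, 1671 and 1633 in NA MPs and 1509.7, 1593, 1598, 1613 and 1506 in WT MPs. The groups did not overlap, but NA MP replicate 1 (1624) and WT MP replicate 4 (1613) nearly met. The means of 1678 ± 73.2 (SD, n = 4) and 1564 ± 51.7 (SD, n = 5) differed by 0.10 on the log2 scale (SE 0.034, adjusted p = 0.018 in limma). This call was lost without NA MP replicate 2 (0.07, adjusted p = 0.117 in limma) and without WT MP replicate 5 (0.09, adjusted p = 0.0604 in limma). The longest transcript of Tcf3 is 61.0% G and C, the highest such share of the 8 genes. Once GC content and length were corrected for, the difference was -0.02 (SE 0.032, adjusted p = 0.583 in limma).

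Tcf12 (HEB; ENSMUSG00000032228, chromosome 9, 71842688 to 72111871, minus strand) had 628, 615, 625 and 619 in NA MPs and 615, 621, 669, 627 and 641 in WT MPs. The groups overlapped, and the means of 622 ± 5.82 (SD, n = 4) and 635 ± 21.6 (SD, n = 5) differed by -0.03 on the log2 scale (95% interval -0.12 to 0.06, adjusted p = 0.635 in limma). The interval limits any rise of Tcf12 to well under that of Tcf4. The ratio of Tcf4 to Tcf12 within a sample, which the scaling between samples cannot alter, was 0.969 ± 0.0495 in NA MPs (SD, n = 4; 0.929 to 1.04) and 0.656 ± 0.0182 in WT MPs (SD, n = 5; 0.633 to 0.678). These ranges did not overlap.

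**Figure D2:**
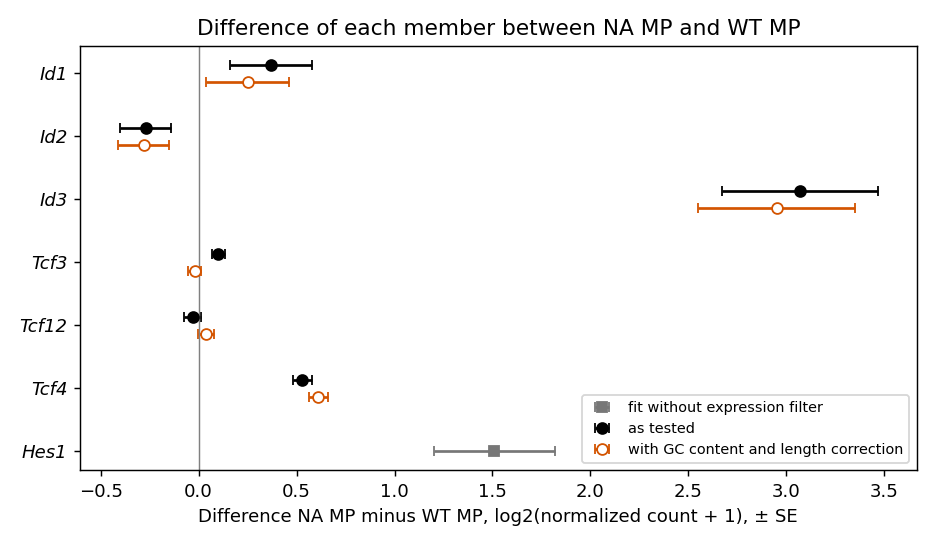
Difference between NA MPs and WT MPs on the log2(normalized count + 1) scale, with its SE, for the 6 tested genes (black), the same after correction for GC content and length (orange, open) and Hes1 in a fit without the expression filter (grey). Id3 and Tcf4 keep their differences after the correction, while that of Tcf3 moves from 0.10 to -0.02.

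Levels can be compared between genes only per length, so each value was divided by the exon length of its gene in kilobases and scaled to a sample total of 1000000. On this scale Tcf3 was the highest of the 8 genes, at 62.1 in NA MPs and 58.4 in WT MPs. Tcf12 followed at 5.98 and 6.17. Id2 was at 3.80 and 4.62, Id1 at 3.58 and 2.83, and Tcf4 at 3.28 and 2.29. Id3 was at 1.85 in NA MPs but 0.154 in WT MPs, and Hes1 at 1.32 and 0.404. In NA MPs, Tcf4, Id1 and Id2 overlapped in their ranges over samples (3.13 to 3.51, 3.08 to 4.42 and 2.98 to 4.29), and in WT MPs every sample had Id2 above Tcf4. This order rests on the length used for Tcf4. By the longest transcript, Tcf4 was at 9.98 to 11.2 in NA MPs and 7.04 to 7.47 in WT MPs, above Id2 (3.69 to 5.31 and 4.80 to 6.49) and Id1 (3.08 to 4.42 and 1.69 to 3.65) in every sample. Tcf3 was highest, and in WT MPs Id3 and Hes1 lay below Tcf4, Id1 and Id2, by either length.

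Id2 and Id1 supplied most of the summed Id level in both groups. Id3 made up 19.8% ± 6.67 of it in NA MPs (SD, n = 4; 10.3% to 25.9%) and 1.98% ± 1.45 in WT MPs (SD, n = 5; 0.890% to 4.33%). Id2 made up 41.4% ± 8.06 in NA MPs and 61.0% ± 8.78 in WT MPs, and these ranges, 29.9% to 48.6% and 51.0% to 74.1%, did not overlap. The share of Id1 was 38.7% and 37.0%. The summed Id level was 9.25 ± 0.697 in NA MPs (SD, n = 4; 8.52 to 9.99) and 7.60 ± 0.663 in WT MPs (SD, n = 5; 6.84 to 8.40).

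Tcf3 supplied 87.0% of the summed E protein level in NA MPs and 87.3% in WT MPs. The share of Tcf4 was 4.61% ± 0.329 in NA MPs (SD, n = 4; 4.16% to 4.95%) and 3.43% ± 0.0622 in WT MPs (SD, n = 5; 3.38% to 3.54%), and that of Tcf12 was 8.39% and 9.23%. The summed E protein level per summed Id level was 7.74 ± 0.456 in NA MPs (SD, n = 4; 7.10 to 8.17) and 8.87 ± 0.964 in WT MPs (SD, n = 5; 7.69 to 10), with overlapping ranges. With the longest transcript in place of all exons these ratios were 10.2 and 11.8, and the share of Tcf4, whose annotated exons are far longer than its longest transcript, was 9.52% and 7.14%. E protein transcript exceeded Id transcript in every sample by either length. These are transcript levels, and say nothing of how much protein of each kind was present.

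**Figure D3:**
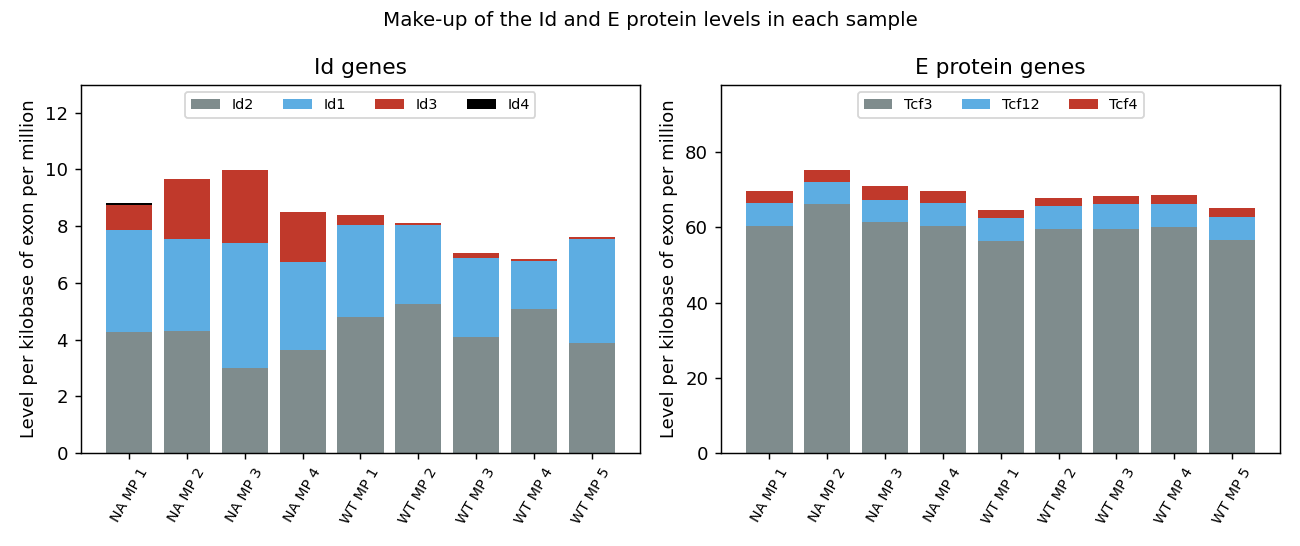
Stacked levels per kilobase of exon, scaled to a sample total of 1000000, for the 4 Id genes (left) and the 3 E protein genes (right), with 1 bar for each sample and linear axes from 0. Id3 (red, left) is a visible part of the bar in the 4 NA MPs, between 10.3% and 25.9%, and at most 4.33% in the WT MPs, while Tcf3 (grey, right) forms most of every E protein bar.

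Hes1 (ENSMUSG00000022528, chromosome 16, 30064384 to 30067796, plus strand) had 14.4, 21.2, 26.7 and 9.92 in NA MPs and 6.47, 5.99, 4.08, 7 and 3.73 in WT MPs. Every NA MP lay above every WT MP, although NA MP replicate 4 was nearer to the WT MPs than to the highest NA MP. It reached a value of 10 in only 3 samples and so fell just outside the expression filter. The means were 18.1 ± 7.41 (SD, n = 4) and 5.45 ± 1.47 (SD, n = 5). The mean log2(value + 1) differed by 1.51, with p = 0.0159 in the exact two-sided permutation test, the smallest it can give. The reads behind these values were 69 in NA MPs and 28 in WT MPs, a ratio per depth of 3.23 with a 95% exact interval of 2.05 to 5.20 for counting error. In a fit without the filter, over 20182 genes, limma gave 1.51 with SE 0.31 and an adjusted p of 1e-04.

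Among the 11 relatives of Hes1 (Hes, Hey and Bhlhe40 families), 3 were tested and 2 rose, where 16.9% of all tested genes did. Heyl, another bHLH repressor downstream of Notch, was between 19.8 and 53.6 in NA MPs and between 1.02 and 4 in WT MPs. Its difference was 3.51 on the log2 scale (SE 0.36, adjusted p = 1.12e-10 in limma), and like Id3 it passed the filter only through NA MPs. Hes6, which differs from Hes1 in that it can antagonise it, rose by 0.26 (SE 0.059, adjusted p = 0.000461 in limma), from 315 to 379. Bhlhe40 had 0.32 (adjusted p = 0.156 in limma). Hes3 and Helt were at 0 in all samples, and Hes5, Hes7, Hes2, Hey1, Hey2 and Bhlhe41 stayed below 10 in all of them. After the GC content and length correction Hes6 was at 0.10 and no longer called (adjusted p = 0.193 in limma).

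Of 34 Notch pathway genes, 29 were tested, 5 were higher and 6 lower in NA MPs, shares near those of all tested genes (16.9% and 17.3%), and the median log2 difference was 0.00, against -0.01 over all tested genes. The receptors Notch1 (685 and 689.8 in the means of NA and WT MPs) and Notch2 (999 and 978) had differences of -0.01 and 0.03, and Rbpj, the DNA-binding factor of the pathway, 0.08 (adjusted p = 0.191 in limma), or 0.15 and called after the GC content and length correction (adjusted p = 0.0221 in limma). The ligand Jag1 was between 0 and 2.48 in NA MPs and between 16.3 and 20.5 in WT MPs, a fitted difference of -3.46 (adjusted p = 1.79e-09 in limma), and passed the filter only through WT MPs. Jag2, another ligand, was higher, at 41.4 in NA MPs and 28.3 in WT MPs (0.53, adjusted p = 0.0126 in limma). Nrarp was lower, at 13 in NA MPs and 21.6 in WT MPs (-0.69, adjusted p = 0.0378 in limma), with overlapping ranges. The ubiquitin ligase Dtx3 rose by 0.30 (adjusted p = 6.04e-07 in limma) and the glycosyltransferase Mfng by 0.34 (adjusted p = 7.3e-06 in limma). Spen, a co-repressor that binds Rbpj, was lower (-0.20, adjusted p = 7.8e-05 in limma). Of the 6 Groucho family genes, 4 rose and none fell, with a median of 0.16, where 16.9% of all tested genes rose. These were Tle3 (0.16, adjusted p = 0.00104 in limma), Tle2 (0.55, from 37.9 to 56.2, adjusted p = 0.00412 in limma), Tle4 (0.17, adjusted p = 0.0233 in limma) and Aes (0.09, adjusted p = 0.041 in limma). The calls of Tle4 and Aes were weak. Both were lost without WT MP replicate 1 (adjusted p = 0.0565 and 0.0503 in limma) and without WT MP replicate 4 (0.0597 and 0.0778), Tle4 also without NA MP replicate 2 (0.0653) or 3 (0.0949), and Aes also without NA MP replicate 2 (0.318) or WT MP replicate 2 (0.0708), 3 (0.0676) or 5 (0.0572). After the GC content and length correction Aes was at -0.02 (adjusted p = 0.754 in limma).

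Among the tissue-restricted bHLH partners of E proteins, 28 were in the table, 16 of them were at 0 in every sample, and 3 were tested. Tal1, the partner of E proteins in stem cells and in the erythroid and megakaryocyte lineages, had 451 to 586 in NA MPs and 677 to 752 in WT MPs. It fell by 0.53 on the log2 scale (SE 0.062, adjusted p = 6.37e-07 in limma). Lyl1, its close relative, rose by 0.17 (SE 0.038, adjusted p = 0.00031 in limma), from 1081 to 1219, although it shares exonic sequence with Nfix on the opposite strand. Bhlha15 did not pass the test (0.27, adjusted p = 0.289 in limma). After the GC content and length correction Lyl1 was at 0.00 (adjusted p = 0.995 in limma). Beside the fall of Tal1, erythroid markers were lower in NA MPs: of 13 tested, 11 fell (17.3% of all tested genes did) and none rose, and the sum of all 15 was between 5281 and 6745 in NA MPs and between 9972 and 11043 in WT MPs. In bulk samples, fewer cells of a type and less RNA per cell cannot be told apart. The part of the erythroid share of cells in the value of Tal1 was not tested.

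Of 13 cofactors that join E proteins in larger complexes, 12 were tested, 2 rose and 2 fell, a share near the 34.3% of all tested genes, and the median was 0.03. The bridging factors Lmo2 (2261 and 2164 in NA and WT MPs, 0.06, adjusted p = 0.113 in limma) and Ldb1 (1787 and 1865, -0.06, adjusted p = 0.14 in limma) and the co-repressor Cbfa2t3 (526 and 532, -0.02) did not pass the test. Lmo2 did without WT MP replicate 1 (0.08, adjusted p = 0.0382 in limma), and Ldb1 did after the GC content and length correction (-0.16, adjusted p = 3.7e-05 in limma). Lmo4 rose by 0.22 (adjusted p = 0.000109 in limma) and Ssbp2, which stabilises Ldb1, by 0.22 (adjusted p = 0.00377 in limma), while its relative Ssbp3 was lower (-0.28, adjusted p = 2.33e-05 in limma), as was the acetyltransferase Ep300 (-0.14, adjusted p = 0.00381 in limma).

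The BMP and TGF-beta pathways, of which Id1 and Id3 are known targets, held 32 genes, with 21 tested, 6 higher, 3 lower and a median of 0.01, where 16.9% of all tested genes were higher and 17.3% lower. Ligand Tgfb1 rose by 0.31 (adjusted p = 5.39e-11 in limma), from 2068 to 2569, and receptor Tgfbr2 by 0.51 (adjusted p = 8.92e-08 in limma), from 231 to 331. The co-receptors Tgfbr3 and Eng were lower, Tgfbr3 at 66.7 to 91.2 in NA MPs and 169 to 197 in WT MPs (-1.19, adjusted p = 2.27e-14 in limma) and Eng at -0.37 (adjusted p = 1.25e-07 in limma). The receptor Bmpr2 was also lower, at 52.2 in NA MPs and 68.9 in WT MPs (-0.40, adjusted p = 0.0108 in limma), while the receptor Acvr1b was higher (0.34, adjusted p = 8.91e-05 in limma). Of the SMADs that carry BMP signals, Smad1 rose by 0.42 (adjusted p = 0.00019 in limma), from 145 to 194, Smad5 had 0.07 (adjusted p = 0.287 in limma), and Smad9 was at 0 in NA MPs and at most 1 in WT MPs. The inhibitory SMADs, themselves known targets of the pathway, both rose, Smad7 by 0.59 (adjusted p = 9.89e-06 in limma) and Smad6 by 0.70 from a mean of 11.9 (adjusted p = 0.0331 in limma). The call of Smad6 was lost without NA MP replicate 2, 3 or 4 or WT MP replicate 1, 3 or 5, with adjusted p between 0.0546 and 0.112 in limma and differences of 0.59 to 0.72, and also after the GC content and length correction (0.57, adjusted p = 0.0855 in limma). BMP ligands were near 0, with no value above 3.60 for Bmp2, Bmp4, Bmp6 or Bmp7 in any sample.

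**Figure D4:**
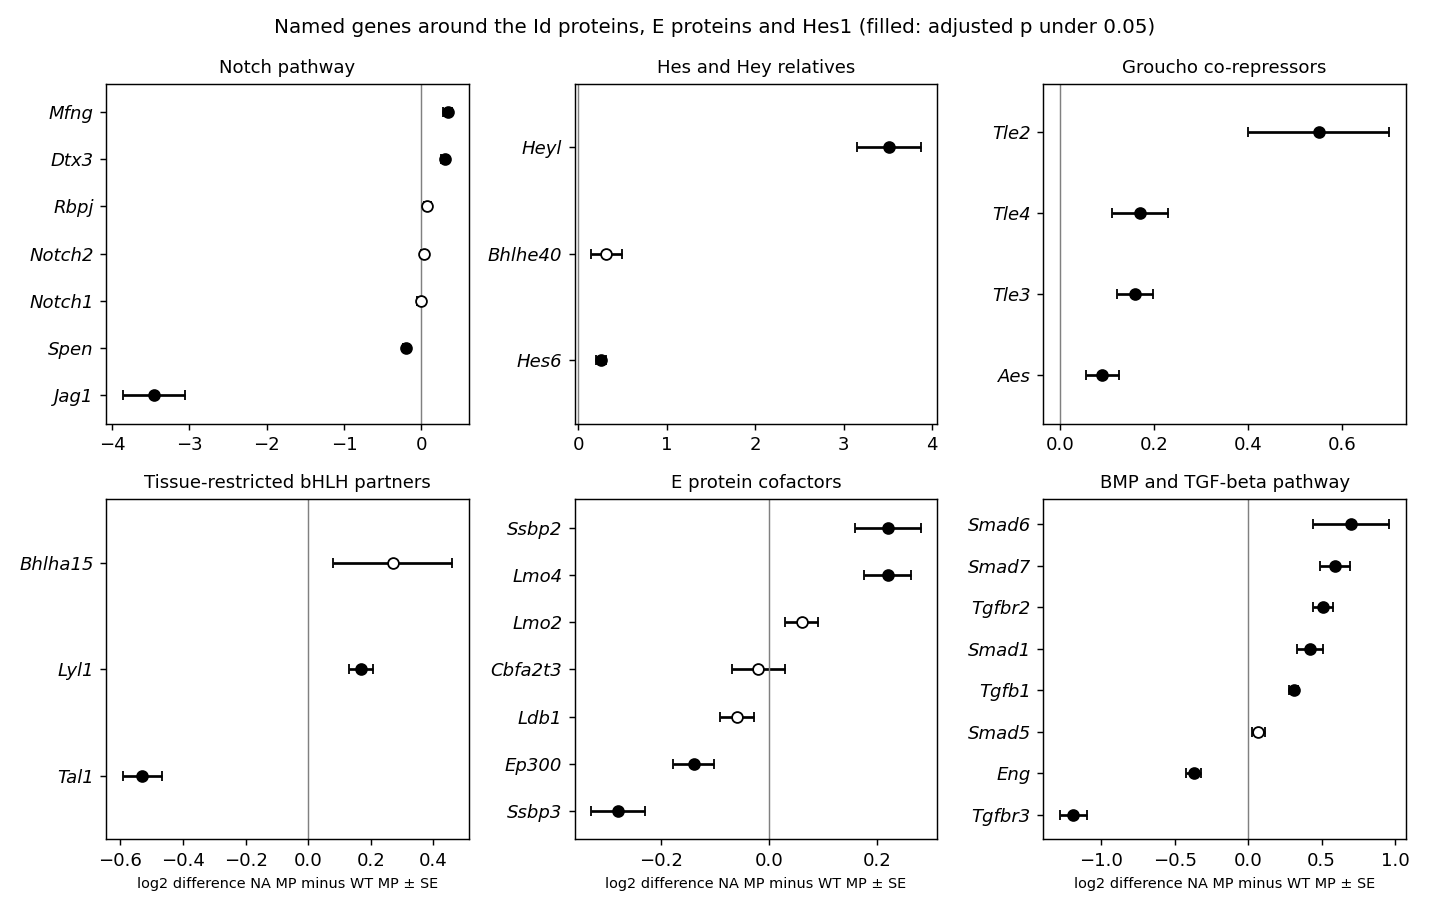
Differences between NA MPs and WT MPs on the log2 scale with their SE for named genes of 6 lists, filled where the adjusted p in limma was under 0.05. The axes differ between panels, and Heyl (3.51) and Jag1 (-3.46) have by far the largest differences shown.

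The lymphoid genes that E proteins are known to activate were nearly all higher in NA MPs. Of 18, 15 were tested (3 of them through NA MPs only) and 14 rose, where 16.9% of all tested genes did, with a median log2 difference of 3.10, and the exception was Notch1. With a filter of 10 in every sample 8 were called. Ebf1, the factor that commits cells to the B lineage, was between 78.0 and 169 in NA MPs and between 7.94 and 16.0 in WT MPs (3.52, adjusted p = 3.93e-15 in limma). Cd79a, part of the pre-B cell receptor complex, rose by 3.45 (adjusted p = 1.33e-17 in limma), from 15.1 to 182, Vpreb3 by 3.31 (adjusted p = 3.79e-17 in limma) and Vpreb1, a surrogate light chain gene, by 3.10 (adjusted p = 2.12e-14 in limma). Most of this list is also a list of markers of pro-B and pre-B cells. Of the 13 genes of that marker list, all 13 had NA MP values above the WT MP values, and 12 were tested and rose, with a median of 3.32. Among all tested genes 16.9% rose and 26.3% did not overlap. Of the 12, 2 (Pax5 and Vpreb3) passed the filter only through NA MPs, and 7 were called with a filter of 10 in every sample. By the study's methods, the lineage mixture of the MP gate includes an antibody to the B cell form of Ptprc, which removes cells that carry it.

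Summed over the 13 pro-B and pre-B markers, the value was 1499, 2673, 2691 and 2018 in NA MP replicates 1 to 4 and between 388 and 425 in WT MPs. The Id3 values of the NA MPs stood in the same order as these sums, with replicate 1 lowest and replicate 3 highest. Tcf4 had another order, with replicate 2 lowest, and Hes1 was lowest in replicate 4. These are 4 points a gene, and such a match was not particular to the B lineage list. Summed monocyte and macrophage markers (16127, 18035, 18318 and 17541 in NA MP replicates 1 to 4) also stood in the order of Id3. Summed plasmacytoid dendritic cell markers (992, 1039, 1135 and 983) stood in the order of Hes1. Among WT MPs, where the pro-B and pre-B sums were alike, Id3 was highest in replicate 1 (4.32) and Hes1 in replicate 4 (7). The part of B lineage cells in the higher Id3, Tcf4 and Hes1 was not tested.

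The markers of other cells that are rich in these transcripts were also examined, beside the 16.9% of all tested genes that rose. Of 10 plasmacytoid dendritic cell markers, with Tcf4 as their known regulator, 4 were tested and rose, with a median of 0.37. The rest did not pass the filter. Spib was between 15.6 and 40.4 in NA MPs and between 0.932 and 5.09 in WT MPs (2.83, adjusted p = 1.65e-08 in limma) and passed the filter only through NA MPs, and Irf7 (0.54), Runx2 (0.19) and Bst2 (0.20) rose less. The defining marker Siglech was at most 1.02 in any sample, Klk1 was at 0, and Ccr9 was below 5. Summed, this list had 983 to 1135 in NA MPs and 851 to 888 in WT MPs. Of 12 NK and innate lymphoid markers, cells in which Id2 is high, 2 were tested and rose, Gzmb (from 59.8 to 300.3, adjusted p = 2.69e-23 in limma), which mast cells and basophils also express, and Zbtb16. Il2rb was between 3.60 and 9.09 in NA MPs and between 0 and 3 in WT MPs, and Klrb1c averaged 5.44 and 1.92, both under the filter. Ncr1, Tbx21, Gzma and Eomes had no value above 4.45. Without the filter, 5 of this list were called. The summed list had 444 to 565 in NA MPs and 188 to 215 in WT MPs. Of 8 T cell markers 1 was tested (Lck, from 11 to 52.2), and Cd3e, Cd3g and Trac were at 0 in every sample.

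Immediate early genes, which respond to cell handling as well as to signals, were also higher in NA MPs. Of 21, 18 were tested and 16 rose, where 16.9% of all tested genes did, with a median of 2.10. Fos was between 2691 and 5900 in NA MPs and between 353 and 894 in WT MPs (2.90, adjusted p = 0.000372 in limma), and Egr1 rose by 2.80 (adjusted p = 0.0109 in limma). The summed list had 21986, 15599, 30649.7 and 32773 in NA MP replicates 1 to 4 and 4051 to 7527 in WT MPs. Hes1 and the Id genes are also known to respond rapidly to stimulation. Among the NA MPs, Hes1 was lowest in replicate 4, in which this sum was highest, and Id3 was second highest in replicate 2, in which it was lowest. Tcf4 was lowest in replicate 2 and next lowest in replicate 1, as was this sum, while its highest value was in replicate 3 and that of the sum in replicate 4. The part of the state that raises immediate early genes in the values of Id3, Hes1 and Tcf4 was not tested.

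**Figure D5:**
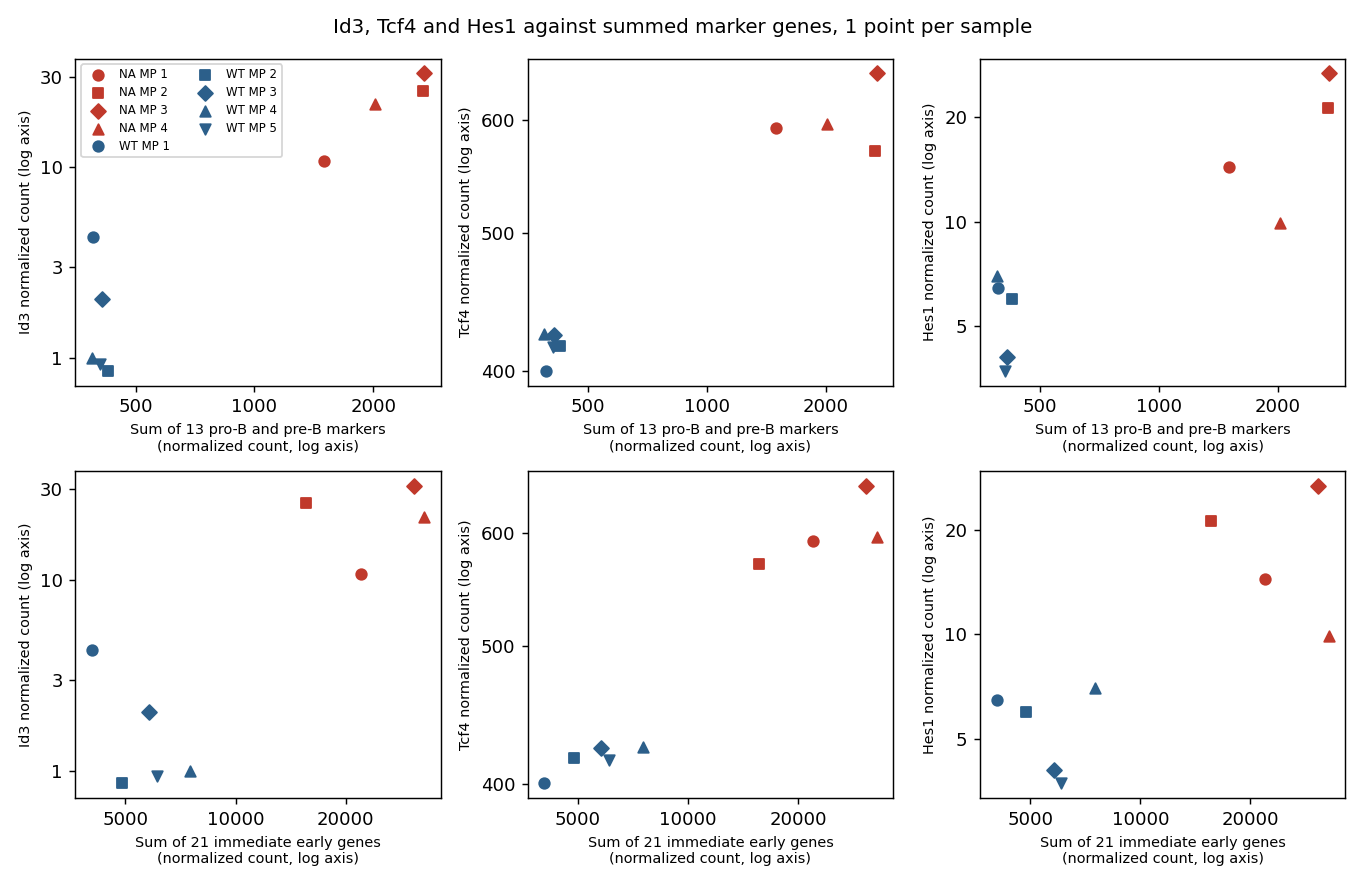
Normalized count of Id3, Tcf4 and Hes1 (columns, log axes) against the summed normalized count of 13 pro-B and pre-B markers (top, log axes) and of 21 immediate early genes (bottom, log axes), with 1 point for each NA MP (red) and WT MP (blue) sample. The groups stand apart on both axes of every panel. Within the NA MPs Id3 runs from 10.8 in replicate 1 to 31.2 in replicate 3. Its order over replicates is that of the B lineage sum, and also that of a monocyte and macrophage marker sum, which is not drawn.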

How the data were processed

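RNA was extracted from sorted MPs with the RNeasy micro kit and libraries were made with the TruSeq kit. Per the labels, the submitters' processing notes name bcl2fastq, RSEM, DESeq2 and the build mm10, with no versions. The deposited table is called raw counts, but its values were a normalized signal: between 97.6% and 98.0% of the values above 0 were whole multiples (within 0.05) of a step of 0.82656 to 1.20044 that differed between samples, and sums were between 6602851 and 6734284. They were therefore taken as read counts that the authors had divided by 1 factor per sample. The design had assumed expected counts, so a count test was replaced by limma 3.58.1 (R 4.3.3) with a trend and robust variance on log2(value + 1), after a filter of at least 10 in at least 4 samples, and p-values were adjusted by the Benjamini-Hochberg method, with a call at 0.05. The values were used as scaled by the authors. Fold changes on this scale understate those of low genes. Single values were compared by an exact two-sided permutation test over all ways to choose 4 of the 9 samples. The fit was also run on simulated data in which few genes changed and all had the same dispersion, a setting unlike these data, and no result here rests on it.

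Names, coordinates, exon lengths and GC content (of the longest transcript) came from GENCODE M21 (the same assembly as mm10), with 32916 genes named. Whether the counting used strand is not given in the sources used here, so genes that overlap another on the opposite strand are uncertain. Replicates of a group differed by more than sampling noise (chi-square per degree of freedom 1.20 to 2.83). Replicate numbers did not pair the samples. The genes and the lists were chosen with earlier results of these data known. Named are the 8 genes, the first 4 of a list by adjusted p, and genes of the lists that bear directly on a member; other list genes given by their values were chosen after these were seen. Alternatives changed the scaling, filter, robust option, threshold, replicate block, GC content and length, gene length and each sample in turn; pseudocounts of 0.5 and 4 and voom on the recovered reads were added after seeing the data, as were the fit of Hes1 without a filter and the read ratios.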

Additional observations from a re-analysis of the deposited data

Results flagged for a closer look

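Id4 had a normalized count of 1.2 in NA MP replicate 1 and 0 in the other 3 NA MPs, which sets this sample far from the rest of its group. The value is 1 read, and with the other 3 at 0 any value above 0 would be flagged. Of 21 groups of values examined in this way 1 stood out, and chance gives about 1.1, a rate that does not hold for a group like this one.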

How the results depend on the processing

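Id3 and Tcf4 kept their direction in every alternative in which they were tested, and Id1, Id2 and Tcf12 stayed under the threshold except as given here. In a test against a 2-fold change, 189 genes in place of 4107 passed, and 1 of the 8 genes (Id3), with Tcf4 at 0.53 and Tcf3 at 0.10 both at an adjusted p of 1 in limma. At an adjusted p of 0.01, Tcf3 (0.10, 0.018) was not called. Hes1 (1.51) was outside the main fit, and its unadjusted permutation p of 0.0159 cannot go lower, so a threshold of 0.01 says nothing about it. In the fit without the filter its adjusted p was 1e-04 in limma. Correction for GC content and length, with both known for 97.1% of tested genes, turned Tcf3 to -0.02 and Aes to -0.02, and moved the calls over all genes from 2030 higher and 2077 lower (49.4% higher) to 1669 and 2616 (38.9%); the cause was not tested. With the replicate block, Tcf3 was 0.09 (adjusted p = 0.0639 in limma) and Id2 -0.33 (adjusted p = 0.0463 in limma), no other of the 6 tested genes changed its call, and the call of Smad6 was lost (0.60, adjusted p = 0.0992 in limma); deviations of same-numbered samples correlated at -0.02 to 0.06, so the numbers do not pair the samples. Leaving out single samples gave 3625 to 3937 genes, 2 to 4 of the 8 genes, 0.07 to 0.12 for Tcf3, 2.88 to 3.37 for Id3 and 1.3 to 1.75 for Hes1. With an NA MP left out, the filter asked for a value of at least 10 in only 3 samples. Without NA MP replicate 4, the lowest NA MP for Hes1 (9.92), Hes1 passed this filter through the other NA MPs alone and was called. A difference was then a condition of its being tested. A filter of 10 in every sample removed Id3. By the longest transcript, E protein per Id level was 10.2 in NA MPs and 11.8 in WT MPs. Of the other values, 180 kept their call or, for counts and level ratios, stayed close to the main value, although Tcf12, not called, went from -0.03 to 0.04 with the correction for GC content and length; of the counts over lists 351 stayed within 1.5 times and 27 did not; and of the values of single list genes 862 stayed, 51 lost and 3 gained a call and 1 (Aes) reversed. The planned DESeq2 test was not run, since the values are not counts, and median-of-ratios scaling took the place of the planned change of normalization. Depth limits Id3 in WT MPs (9 reads), Hes1 and Id4 most.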

Other observations

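The genes whose deviations from the group means over the 9 samples were most like those of a called member are given as a description, without a test and chosen from 8321 genes (8322 for Id3). For Id3 they were Pip5k1c (Pearson r 0.96) and Itm2c (0.95), for Tcf3 Arpc1b (0.97) and Ptpn7 (0.97), and for Tcf4 Mcm8 (0.98) and Armc8 (0.94). The 9 points share their libraries, depth and scaling.

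Other lineage markers in the same samples were as follows, where 16.9% of all tested genes rose and 17.3% fell. Of 9 mast cell and basophil markers, all 9 tested, 6 rose and 2 fell, with a median log2 difference of 0.92. Ms4a2, a chain of the IgE receptor, went from 277 in WT MPs to between 649 and 838 in NA MPs. Of 8 megakaryocyte markers tested, 1 rose and 3 fell. Of 9 neutrophil markers tested, 4 rose and 2 fell (3 calls without NA MP replicate 4), and of 10 monocyte and macrophage markers 6 rose and 2 fell. Of the 11 myeloid progenitor markers, 4 rose and 2 fell.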
